A study of Homo sapiens with 132 samples.

Results

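The mRNA levels of 67 nuclear genes for structural subunits of the respiratory chain and the ATP synthase were examined in 4 gastric cancer cell lines. The genes were the protein-coding genes with symbols beginning NDUFA, NDUFB, NDUFC, NDUFS or NDUFV and a number (complex I), SDHA to SDHD (complex II), UQCR (complex III), COX4 to COX8 (complex IV) or ATP5F1, ATP5M or ATP5P (complex V). Of the 65217 gene identifiers in the count data, 19674 were protein-coding in GENCODE 29, 88 of these had such a symbol, and 67 of the 88 had a mean level of at least 1 CPM (read counts relative to the library size, scaled by edgeR's TMM method) over all libraries. By complex, these were 30 genes for complex I, 3 for complex II, 8 for complex III, 13 for complex IV and 13 for complex V. NDUFA4 was counted with complex IV, where its protein resides.

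The study asked how EGF, the EGFR antibody cetuximab, the HER2 antibody trastuzumab and the irreversible EGFR and HER2 kinase inhibitor afatinib change signalling and gene expression in MKN1, MKN7, NCI-N87 and Hs746T cells, all established lines from metastases of gastric carcinoma. MKN1 and Hs746T cells were left untreated or received EGF (5 ng/ml), cetuximab (Cet, 1 µg/ml), EGF+Cet, trastuzumab (Tra, 5 µg/ml), afatinib (Afa, 0.5 µM) or Tra+Afa for 4 h or 24 h. For MKN7 and NCI-N87 cells the conditions were untreated, Tra, Afa and Tra+Afa at the same doses and times. Each of the 44 conditions had 3 libraries from biological triplicates. The controls were untreated cells, not cells given the solvent. Hs746T cells grew in DMEM and the other lines in RPMI, so cell line and medium cannot be told apart. Each library holds the RNA of a whole culture, so fewer cells of a kind and less RNA per cell cannot be told apart either.

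Complexes I to IV carry electrons from NADH and succinate to oxygen and pump protons out of the mitochondrial matrix, apart from complex II, which pumps none and also works in the tricarboxylic acid cycle. Complex V lets the protons flow back and makes ATP. Most of the subunits are encoded in the nucleus and imported, while a small set of core subunits is encoded in mitochondrial DNA. The 37 mitochondrial identifiers held no counts in any library, so the mitochondrially encoded subunits were not measured.

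The libraries held 25832557 to 69434151 counts on genes (median 50725775), and 3 counts correspond to between 0.0432 and 0.116 CPM, which covers counting error only. The epithelial markers EPCAM and CDH1 had medians of 626 and 243 CPM in MKN7 and 496 and 256 CPM in NCI-N87 cells. In MKN1 cells they were at 25.1 and 2.0 CPM, and in Hs746T cells at 35.5 and 0.785 CPM. The mesenchymal marker VIM reached a median of 559 CPM in MKN1 and 1595 CPM in Hs746T cells. CDH2 (79.8 CPM), COL1A1 (523 CPM) and PECAM1 (155 CPM) were also high in Hs746T cells, while the haematopoietic markers PTPRC, CD3E and HBB stayed at or below 0.664 CPM in every library.

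Single libraries differed from their replicates in the subunit genes as a whole. The mean log2 CPM of the 67 genes (pseudocount 0.5 CPM) spanned 0.0535 to 0.669 between the 3 libraries of a condition, with a median span of 0.361. The library highest in the subunit genes was also highest in 67 cytosolic ribosomal protein genes in 41 of 44 conditions, and the order of the 3 libraries was the same in 28 of 44. The median transcript lengths of both groups were short, at 716 bases for the subunit genes and 670 for the ribosomal protein genes, against 1900 for 12679 expressed protein-coding genes. MKN1 replicate 2 had the highest subunit level in most conditions, and in Hs746T cells at 4 h, replicate 2 was higher in all treated conditions than in the untreated one. The part of this shared library difference in the results was not tested, but counts of called genes are given with the replicate number as a block, or with the ribosomal protein level of each library as a covariate, wherever these moved them by more than 1.5 times. That level was measured in the treated libraries themselves, so a treatment may change it. Counts with the covariate may therefore gain or lose part of a treatment effect, which was not tested. Shares of all genes are given for the main fit only. Counts with the block, the covariate or other settings therefore cannot show a trait of the subunit genes.

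**Figure D1:**
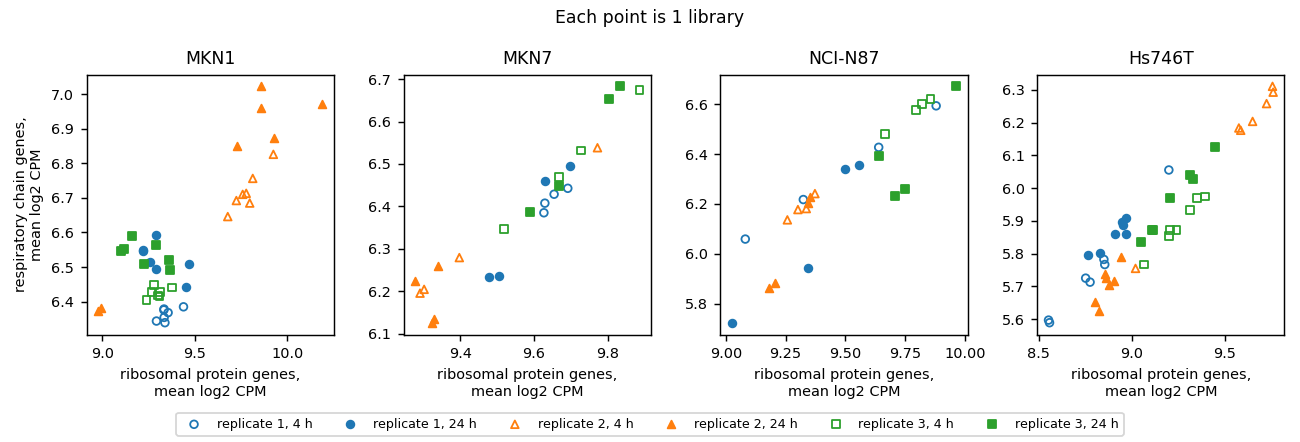
Mean log2 CPM of the 67 subunit genes (y axis) against the mean log2 CPM of 67 cytosolic ribosomal protein genes (x axis), with 1 panel per cell line, 1 point per library, and colour and shape for the replicate number and time. In MKN7, NCI-N87 and Hs746T cells the points rise together along both axes, and in MKN1 most libraries of replicate 2 lie apart from the others at the upper right.

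Of the 88 genes, 21 lay under the mean of 1 CPM. Among these, 11 were listed at 0 in every library (NDUFA7, NDUFA9, NDUFB8, NDUFC2, NDUFC2-KCTD14, COX8C, ATP5MC1, ATP5MF-PTCD1, ATP5MGL, ATP5PD and ATP5PO), and NDUFA11, NDUFV2, SDHD, UQCR11, COX6A1, COX8A and ATP5MF had means from 0.00502 to 0.304 CPM. Several of them encode subunits that respiring cells need, such as SDHD, an anchor of complex II, and ATP5PO, the stalk subunit that makes the ATP synthase sensitive to oligomycin. Exons of another gene on the same strand overlapped 14 of the 21 genes, against 13 of the 67 that were analysed, in which the overlap covered at most 30.9% of the exon length. The largest overlaps among the 67 were those of COX6B2 (30.9%) and NDUFA13 (21.0%), each mainly with another protein-coding gene. The cause of the low listings was not tested, and nothing is said here about the expression of those genes. The tissue-specific forms COX4I2, COX6A2 and NDUFA4L2 were listed at means of 0.0540, 0.00394 and 0.653 CPM. Just above the limit were COX7A1 with a mean of 1.08 CPM, NDUFA13 with 1.58 CPM and COX7B2 with 2.92 CPM.

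Promoter sequences are shown for 6 of the genes whose levels are described below. RefSeq promoters on GRCh38.p14 (250 bases before to 50 after the start) were matched for 55 of the 67 genes. The palindromic motif of NRF1, a regulator of respiratory genes, with any base in its middle and no mismatch elsewhere, was found in 11 of the 55 promoters (20%), against 6.28% of 27305 promoters. Letters known to bind YY1 (AANATGGCG) were found in 12 (21.8%), against 3.37%. Letters of ETS factors (CCGGAAG) were in 15 (27.3%) against 10.7%, and the GC box of SP1 (GGGCGG) was in 33 (60%) against 44.6%. All motifs were searched on both strands, and no NRF1 match overlapped a match of the others. In 10 of the 12 promoters the YY1 letters lay after the start. The YY1 letters themselves end in ATGGCG, with which a reading frame can also begin. Every match on the strand of the gene therefore holds them, as in NDUFS6, SDHB and ATP5PF below. A match is a description of the letters and shows no binding. The windows run from 100 bases before the start to 30 bases after it, 5′ to 3′ on the strand of the gene, and capitals mark matches of the NRF1 motif and of the YY1 letters on either strand. NDUFS1 lies at chr2:206159415-206159544 (minus strand), NDUFS6 at chr5:1801307-1801436 (plus), SDHB at chr1:17054003-17054132 (minus), UQCRFS1 at chr19:29213122-29213251 (minus), ATP5PF at chr21:25735025-25735154 (minus) and SDHA at chr5:218220-218349 (plus).
NDUFS1: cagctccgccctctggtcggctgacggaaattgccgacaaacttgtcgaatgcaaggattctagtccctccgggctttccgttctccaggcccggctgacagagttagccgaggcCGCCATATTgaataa
NDUFS6: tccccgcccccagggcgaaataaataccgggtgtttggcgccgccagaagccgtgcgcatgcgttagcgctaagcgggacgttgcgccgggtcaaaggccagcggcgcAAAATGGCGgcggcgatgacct
SDHB: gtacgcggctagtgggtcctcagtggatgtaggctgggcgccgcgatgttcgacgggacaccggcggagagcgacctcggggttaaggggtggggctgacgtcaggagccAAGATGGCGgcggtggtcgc
UQCRFS1: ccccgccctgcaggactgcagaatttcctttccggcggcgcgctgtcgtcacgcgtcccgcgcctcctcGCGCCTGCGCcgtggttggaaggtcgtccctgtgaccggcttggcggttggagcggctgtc
ATP5PF: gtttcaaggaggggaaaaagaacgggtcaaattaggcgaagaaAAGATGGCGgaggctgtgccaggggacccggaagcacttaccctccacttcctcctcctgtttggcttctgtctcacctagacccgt
SDHA: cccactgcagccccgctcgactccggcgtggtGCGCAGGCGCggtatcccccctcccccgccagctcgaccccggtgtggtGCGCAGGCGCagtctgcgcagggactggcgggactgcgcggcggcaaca

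In untreated cells, Hs746T had the lowest level of the subunit genes. The summed level was 10848 ± 1281 CPM in MKN1, 9884 ± 1200 CPM in MKN7, 8986 ± 1170 CPM in NCI-N87 and 6435 ± 370 CPM in Hs746T cells (mean ± SD, n = 6 libraries, 3 at each time). This was 1.09%, 0.927%, 0.874% and 0.650% of all counts. The ranges of the first 3 lines overlapped, and the highest Hs746T library (6929.6 CPM) lay below the lowest of the other lines (7515 CPM, in NCI-N87 cells). Per kilobase of exon, the median gene was at 39.0 CPM in MKN1, 40.8 CPM in MKN7, 40.4 CPM in NCI-N87 and 31.2 CPM in Hs746T cells. ATP5F1B, the catalytic beta subunit of the ATP synthase, NDUFS5, an accessory subunit of complex I, and NDUFB7, another one, were among the 5 highest genes per kilobase in every line.

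Between lines, a gene was called different at a Benjamini-Hochberg adjusted p below 0.05 over all genes in edgeR's quasi-likelihood test. The test averaged the untreated 4 h and 24 h libraries of a line and took all 6 as independent. In every line, same-numbered libraries were correlated between the times (lowest r 0.225, in NCI-N87 cells). The SEs, SDs and p-values between lines may therefore be too small. Against Hs746T cells, 44 of the 67 genes were higher and 4 lower in MKN1 cells, where 38.9% of all 22832 genes tested were higher and 37.6% lower. In MKN7 cells 41 were higher and 10 lower (37.4% and 36.8% of all genes), and in NCI-N87 cells likewise 41 and 10 (39.3% and 37%). The median log2 differences of the subunit genes were 0.61, 0.59 and 0.60, against 0.04, 0.01 and 0.05 for all genes. Of the 67 genes, 4 (NDUFA13, COX6B2, COX7A1 and COX7B2) were under 1 CPM in untreated Hs746T cells. They met the level limit through other lines, so a higher level elsewhere is in part set by the selection. Among the other 3 lines the directions were more even. In NCI-N87 cells 24 genes were higher and 23 lower than in MKN7 cells (37.5% and 35.8% of all genes), and 16 were higher and 27 lower than in MKN1 cells (38% and 37.7%). In MKN7 cells, 18 were higher and 28 lower than in MKN1 cells (35.5% and 36.4%). The ribosomal protein level also differed between lines, with 9.45 ± 0.26 log2 CPM in untreated MKN1 and 8.95 ± 0.14 in untreated Hs746T cells (n = 6), and its part in the result was not tested.

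**Figure D2:**
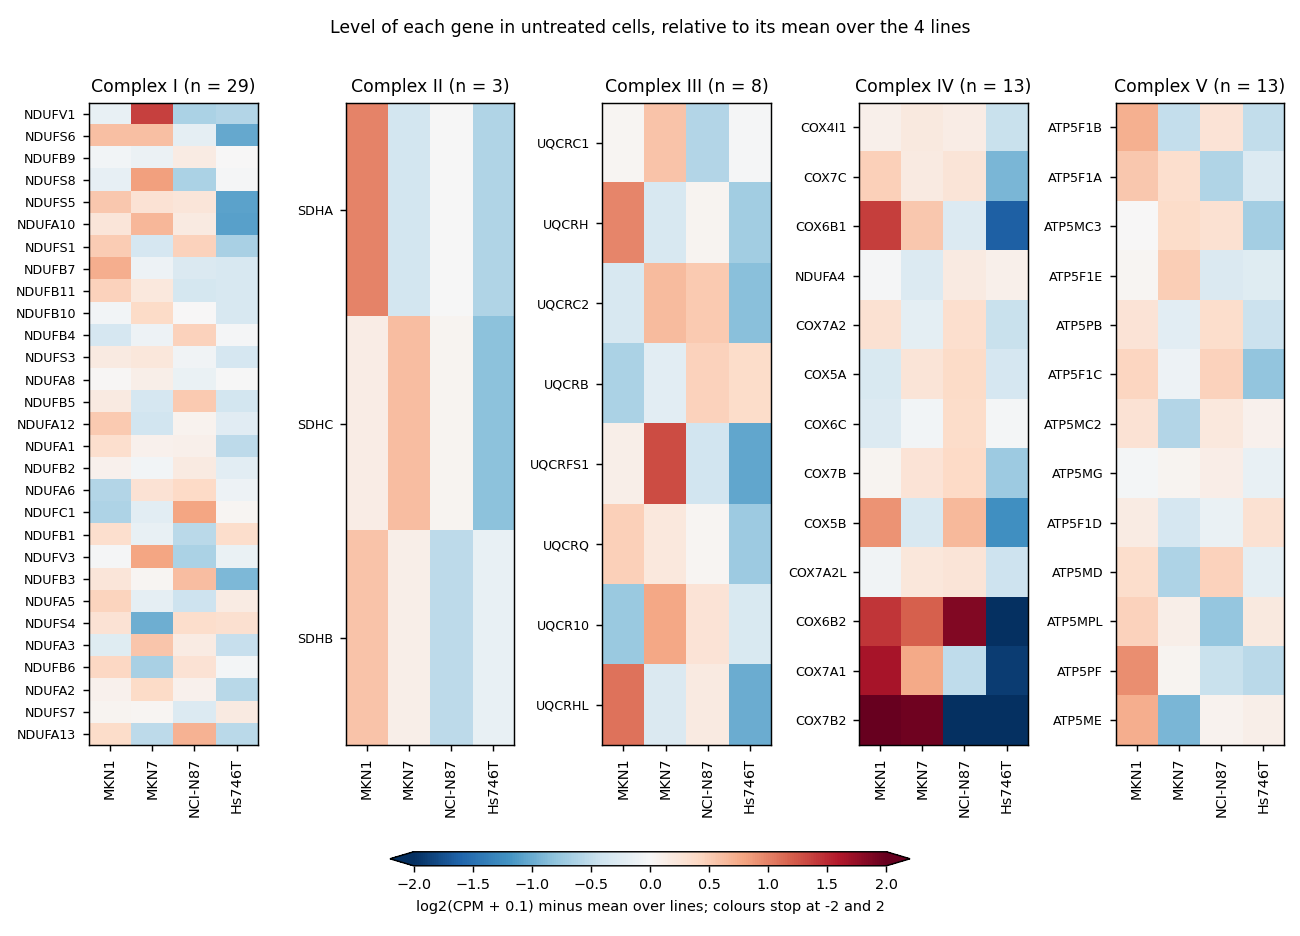
Level of 66 of the 67 subunit genes (1 line of colour per gene, grouped by complex) in untreated cells of each line, as log2 of the mean CPM of 6 libraries plus 0.1, minus the mean over the lines. Colours stop at 2 in either direction, Hs746T is blue in most genes, and COX6B1, COX6B2, COX7A1 and COX7B2 have the deepest blue there.

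Complex I genes differed between lines in opposite directions. NDUFV1, the flavoprotein subunit that accepts electrons from NADH, ranged from 731 to 959 CPM in untreated MKN7 cells (median 817). Its medians were 283 CPM in MKN1 (266 to 307), 205 in NCI-N87 (174 to 231) and 230 in Hs746T cells (143 to 264). Every MKN7 library was above every library of the other lines, and the log2 difference was 2.01 ± 0.17 (SE) below MKN7 in NCI-N87 cells (adjusted p = 6.05e-20, edgeR) and +1.52 ± 0.16 in MKN7 over MKN1 cells (adjusted p = 3.58e-14). NDUFS4, a small subunit needed for a stable complex I, went the other way, with 15.7 to 23.6 CPM in MKN7 cells (median 17.2) and medians of 40.3 in MKN1, 45.5 in NCI-N87 and 43.9 CPM in Hs746T cells. The difference between NCI-N87 and MKN7 cells was +1.34 ± 0.14 on the log2 scale (adjusted p = 8.75e-15, edgeR), and no library of the other lines came down to the MKN7 range. NDUFS1, the largest iron-sulfur subunit, had medians of 173 CPM in MKN1, 164 in NCI-N87, 95.2 in MKN7 and 70.0 in Hs746T cells, and the last 2 lines overlapped at 84.8 to 101 and 67.2 to 95.1 CPM. NDUFS8, which carries iron-sulfur clusters, was highest in MKN7 cells at 218 to 312 CPM. NDUFS3 and NDUFS7 varied less, with line medians of 70.1 to 100 and 9.42 to 13.4 CPM.

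Complex II and complex III each had a gene with a large difference between lines. SDHA, the flavoprotein that oxidises succinate, was at 466 to 511 CPM in MKN1 cells and at 174 to 216, 216 to 267 and 149 to 179 CPM in MKN7, NCI-N87 and Hs746T cells. MKN1 stood apart from all of them, with log2 differences of +1.60 ± 0.06 to Hs746T (adjusted p = 4e-46, edgeR), of -1.36 ± 0.06 for MKN7 against MKN1 (adjusted p = 1.04e-40) and of -1.01 ± 0.06 for NCI-N87 against MKN1 cells (adjusted p = 2.52e-31). SDHB, the iron-sulfur subunit, had medians of 131 CPM in MKN1, 104 in MKN7, 83.3 in Hs746T and 64.9 in NCI-N87 cells, and SDHC, a membrane anchor, was highest in MKN7 cells with a median of 159 CPM. UQCRFS1, the Rieske iron-sulfur protein of complex III, was at 349 to 471 CPM in MKN7 cells, at 164 to 202 in MKN1, at 103 to 156 in NCI-N87 and at 76.1 to 89.7 CPM in Hs746T cells. None of these 4 ranges overlapped, and MKN7 exceeded Hs746T cells by 2.34 ± 0.11 on the log2 scale (adjusted p = 2.81e-37, edgeR). The core proteins UQCRC1 and UQCRC2 had medians between 113 and 334 CPM, and the highest medians of both were in MKN7 cells. UQCRH had medians of 389 CPM in MKN1 and 133 in Hs746T cells, but its near-identical copy UQCRHL was listed at 33.9 and 8.79 CPM, and reads could be split between them, so both values are uncertain. UQCRB, the ubiquinone-binding subunit, was lower in MKN1 than in Hs746T cells, with 91.4 to 145 against 186 to 258 CPM and a log2 difference of -1.01 ± 0.16 (adjusted p = 1.21e-08, edgeR).

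In complex IV, 10 or 11 of 13 genes were higher in each of the other lines than in Hs746T cells, where 37.4% to 39.3% of all genes were higher. The 13 include COX6B2, COX7A1 and COX7B2, which were under 1 CPM in Hs746T cells and met the level limit through other lines. COX6B1, the subunit that joins cytochrome c oxidase monomers, was at 429 to 685 CPM in MKN1, 227 to 383 in MKN7, 138 to 218 in NCI-N87 and 58.8 to 71.5 CPM in Hs746T cells. The 4 ranges did not overlap, and the log2 differences to Hs746T were 3.02 ± 0.17 for MKN1 (adjusted p = 4.92e-30, edgeR), 2.17 ± 0.17 for MKN7 (adjusted p = 9.12e-22) and 1.37 ± 0.16 for NCI-N87 (adjusted p = 1.94e-12). COX5B, a zinc-binding subunit, was at 150 to 252 CPM in MKN1, 113 to 207 in NCI-N87, 61.0 to 105 in MKN7 and 36.4 to 50.9 CPM in Hs746T cells, so that only MKN1 and NCI-N87 overlapped. COX4I1, the regulatory subunit in its common form, had closer medians of 303, 339, 326 and 220 CPM in MKN1, MKN7, NCI-N87 and Hs746T cells. COX5A had medians of 107 CPM in MKN1 and 112 in Hs746T cells, which did not differ beyond their spread (log2 difference 0.04 ± 0.13, adjusted p = 0.803, edgeR).

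Alternative forms of complex IV subunits also differed between the lines. COX7A1 and COX7B2 were under 1 CPM in NCI-N87 and Hs746T cells, and COX6B2 in Hs746T cells. These genes met the limit of 1 CPM through the other lines, so their difference between lines is in part set by the selection. COX6B2, a form best known from testis, was at 6.16 to 12.4 CPM in MKN1, 5.70 to 10.7 in MKN7 and 8.64 to 15.5 CPM in NCI-N87 cells, while in Hs746T cells it was at 0 to 0.123 CPM. COX7B2, another form known from testis, was at 4.42 to 11.4 CPM in MKN1 and 2.14 to 4.53 in MKN7 cells, and at 0 to 0.121 CPM in NCI-N87 and 0 to 0.0658 CPM in Hs746T cells. COX7A1, the form of heart and skeletal muscle, was at 2.30 to 2.72 CPM in MKN1 cells and at 0.073 to 0.197 CPM in Hs746T cells. The low values are close to the level of 3 counts, and no fold change is given against them. The ubiquitous partners COX7A2 and COX7B were present in every line, with medians of 113 to 191 and 59.5 to 130 CPM, and COX7A2L, which takes part in supercomplexes, had medians of 58.1 to 92.5 CPM. NDUFA4 had medians of 131 to 178 CPM, and no pair of MKN1, NCI-N87 and Hs746T cells was called different in it (adjusted p = 0.256, 0.507 and 0.665, edgeR).

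In complex V, ATP5F1B was at 1370 ± 100 CPM in MKN1, 1012 ± 113 in NCI-N87, 603 ± 55.9 in MKN7 and 596 ± 28.5 CPM in Hs746T cells. MKN7 and Hs746T cells did not differ in it beyond their spread (log2 difference 0.02 ± 0.08, adjusted p = 0.864, edgeR). ATP5F1A, the alpha subunit of the same catalytic head, had medians of 731, 622, 330 and 402 CPM in MKN1, MKN7, NCI-N87 and Hs746T cells, so that NCI-N87 was lowest in the alpha and second highest in the beta subunit. The c subunit of the membrane rotor is encoded by 3 genes that differ in the import signal. Of these, ATP5MC1 was listed at 0, ATP5MC2 had medians of 139, 77.8, 136 and 126 CPM, and ATP5MC3 of 222, 283, 277 and 143 CPM in MKN1, MKN7, NCI-N87 and Hs746T cells. ATP5MC2 was lowest in MKN7 and ATP5MC3 in Hs746T cells, and the MKN7 range of 70.0 to 90.9 CPM for ATP5MC2 lay below all libraries of the other lines.

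After 24 h of afatinib, part of the subunit genes fell in the MKN7 and NCI-N87 lines, and 1 gene rose in each. In MKN7 cells, 23 of 67 genes were lower and ATP5MC2 was higher than in untreated cells, where 25% of all genes tested were lower and 26.6% higher (51.6% called). In NCI-N87 cells, 24 of 66 were lower and COX6B2 was higher (31% and 31.5% of all genes, 62.5% called). In shares, 34.3% and 36.4% of the subunit genes were lower. Of genes with an average of at least 30 CPM, which most subunit genes also have, 45.6% and 54.0% were lower, so the share of the subunit genes lies between that of all genes and that of well expressed genes. The median log2FC of the subunit genes was -0.20 in MKN7 and -0.33 in NCI-N87 cells, against -0.17 and -0.31 for the well expressed genes. By the study's further limit of an absolute log2FC above 1, 0 of the genes were regulated in MKN7 cells and only ATP5MC3 in NCI-N87 cells, against 13.5% and 29.6% of all genes.

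These counts depended on the libraries. The shares of all genes called under the settings below are not given, so the counts that follow cannot show a trait of the subunit genes. Blocking on the replicate number gave 37 calls in MKN7 and 45 in NCI-N87 cells, of which 36 and 43 were lower. The values of single genes in this report come from the fit without the block. A gene that did not pass the test there may pass with the block. Without replicate 1, 7 and 9 were called, and without replicate 2 in NCI-N87 cells 14. With the ribosomal protein level as a covariate, 51 were called in NCI-N87 cells, 45 of them lower. With library size as the only scaling, the median of all genes moved up by 0.26 in NCI-N87 and 0.11 in MKN7 cells (log2), and in NCI-N87 cells 7 subunit genes were then called higher and 13 lower.

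Of the 13 ATP synthase genes, 8 fell and 1 rose in MKN7 and 9 fell in NCI-N87 cells, where 25% and 31% of all genes were lower. ATP5F1B was at 605, 546 and 703 CPM in the untreated MKN7 libraries and at 412, 398 and 426 CPM after afatinib, a log2FC of -0.59 ± 0.09 (adjusted p = 1.69e-05, edgeR). In NCI-N87 cells it was at 982, 902 and 1069 CPM untreated and at 511, 518 and 667 CPM after afatinib (log2FC -0.83 ± 0.14, adjusted p = 3.13e-05). All treated libraries lay below all untreated ones in both lines. ATP5F1A fell as well, from 661, 619 and 691 to 517, 540 and 535 CPM in MKN7 (log2FC -0.32 ± 0.06, adjusted p = 0.00033) and from 334, 313 and 335 to 216, 221 and 264 CPM in NCI-N87 cells (log2FC -0.52 ± 0.11, adjusted p = 0.000208). ATP5F1C, the central shaft, was at 160, 144 and 175 CPM untreated and at 131, 122 and 134 CPM after afatinib in MKN7 cells (log2FC -0.32 ± 0.09, adjusted p = 0.00426), and its value of -0.29 in NCI-N87 cells did not pass the test (adjusted p = 0.162). ATP5PF, coupling factor 6 of the peripheral stalk, and ATP5F1D, the delta subunit of the rotor, were lower in both lines, with log2FCs of -0.34 and -0.54 in MKN7 and -0.64 and -0.64 in NCI-N87 cells. The ATP5PF libraries overlapped between groups in MKN7 but not in NCI-N87 cells. ATP5MD, a small membrane subunit, was lower in NCI-N87 cells, at 56.5, 58.2 and 82.2 against 114, 111 and 126 CPM (log2FC -0.87 ± 0.25, adjusted p = 0.00411).

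The genes for the c subunit moved in opposite directions in MKN7 cells. ATP5MC3 was at 302, 257 and 407 CPM untreated and at 197, 199 and 241 CPM after afatinib (log2FC -0.61 ± 0.17, adjusted p = 0.00416, edgeR). ATP5MC2 was at 82.8, 73.1 and 90.9 CPM untreated and at 107, 100 and 120 CPM after afatinib (log2FC 0.40 ± 0.13, adjusted p = 0.0144). The untreated and treated libraries of both genes were separate. In NCI-N87 cells ATP5MC3 had the lowest log2FC of all 66 genes, with 275, 257 and 301 CPM untreated, 123, 123 and 177 CPM after afatinib and a log2FC of -1.01 ± 0.21 (adjusted p = 0.000237). ATP5MC2 was at 150, 128 and 145 CPM untreated and at 171, 146 and 210 CPM after afatinib there, which overlapped and did not pass the test (log2FC 0.28, adjusted p = 0.201).

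**Figure D3:**
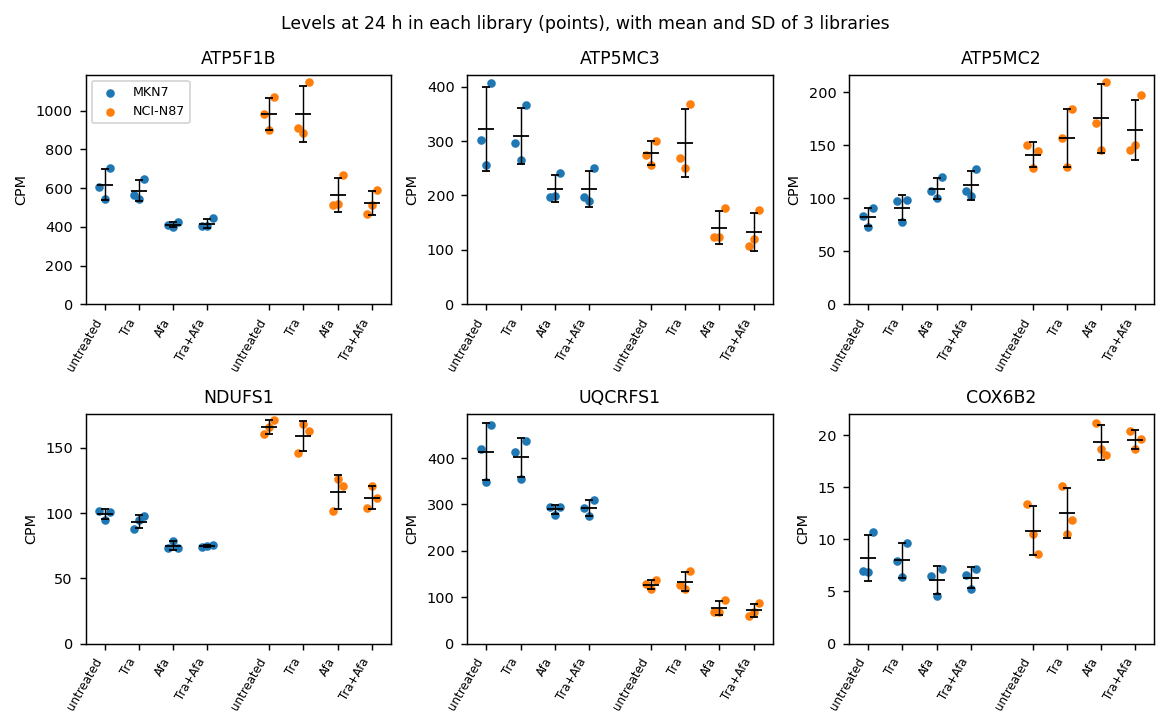
Levels in CPM (y axis, from 0) of 6 subunit genes in each 24 h library of MKN7 (blue) and NCI-N87 cells (orange) by treatment (x axis), with 1 point per library and a bar for the mean and SD (n = 3). ATP5F1B, ATP5MC3, NDUFS1 and UQCRFS1 were lower with Afa and Tra+Afa in both lines, and COX6B2 was higher with them in NCI-N87 cells.

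In complex I, 9 of 30 genes fell in MKN7 and 11 of 30 in NCI-N87 cells, and none rose. Of all genes, 25% and 31% were lower, and larger shares of the well expressed genes. NDUFS1 was at 101, 94.5 and 101 CPM in untreated MKN7 cells and at 72.9, 78.7 and 72.9 CPM after afatinib (log2FC -0.41 ± 0.06, adjusted p = 1.39e-05, edgeR). In NCI-N87 cells it went from 161, 166 and 171 to 101, 126 and 120 CPM (log2FC -0.55 ± 0.08, adjusted p = 1.91e-06). The groups were separate in both lines, and the adjusted p was the smallest of the subunit genes in MKN7 cells and second to that of NDUFV3 (log2FC -0.63, adjusted p = 5.92e-07) in NCI-N87 cells. NDUFB9, an accessory subunit of the membrane arm, had the lowest log2FC in MKN7 cells, with 161, 126 and 194 CPM untreated, 101, 91.8 and 116 CPM after afatinib and a log2FC of -0.64 ± 0.17 (adjusted p = 0.00357). NDUFS8 was at 101, 89.9 and 99.9 CPM in untreated NCI-N87 cells and at 52.7, 49.0 and 65.8 CPM after afatinib (log2FC -0.83 ± 0.16, adjusted p = 0.000119), while its value of -0.33 in MKN7 cells did not pass the test (adjusted p = 0.112). NDUFA12, an accessory subunit of the same peripheral arm, was at 77.0, 69.1 and 76.8 CPM untreated and at 42.0, 39.1 and 52.3 CPM after afatinib in NCI-N87 cells (log2FC -0.77 ± 0.20, adjusted p = 0.00219). Other core subunits had smaller values. NDUFV1 had log2FCs of -0.16 in MKN7 (adjusted p = 0.229) and -0.26 in NCI-N87 cells (adjusted p = 0.0551), and did not pass the test in either line. NDUFS7 was lower in both lines (log2FC -0.33 and -0.33), and NDUFS3 in MKN7 cells (-0.46), with overlapping libraries for both genes in MKN7.

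**Figure D4:**
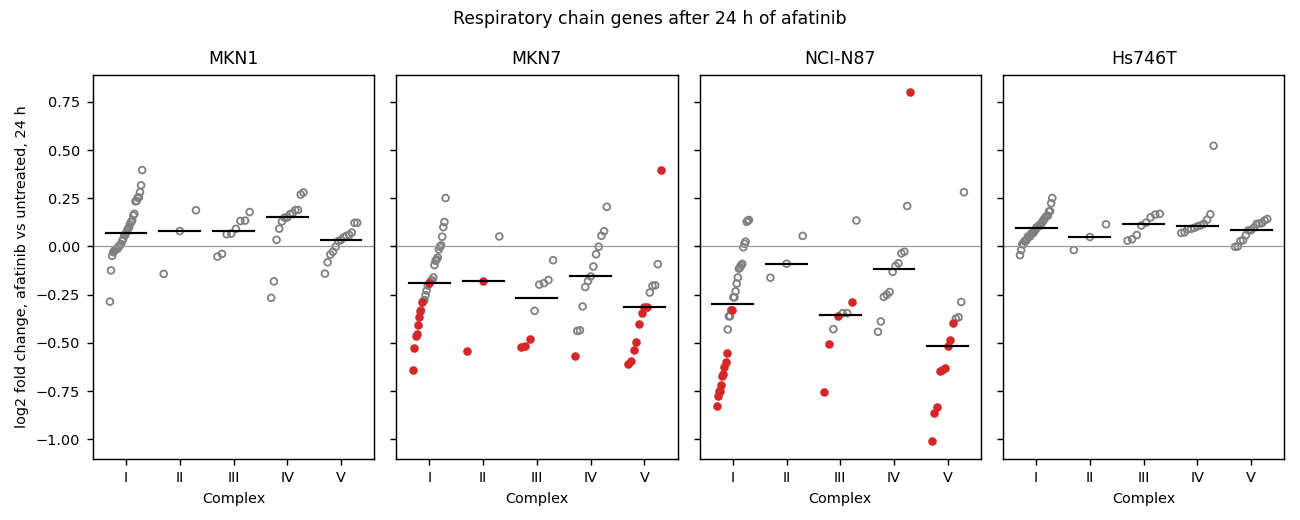
Log2 fold change after 24 h of afatinib against untreated cells (y axis) by complex (x axis), with 1 panel per cell line, 1 point per tested gene, red filled points for an adjusted p below 0.05 and a bar at the median of the complex. Red points lie below 0 in MKN7 and NCI-N87 except ATP5MC2 and COX6B2, and MKN1 and Hs746T have none.

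Complex II and complex III responded in part. SDHB was lower in MKN7 cells, with 74.1, 62.5 and 77.1 CPM after afatinib against 102, 83.4 and 124 CPM (log2FC -0.54 ± 0.15, adjusted p = 0.00452, edgeR), and SDHA changed less, from 216, 192 and 202 to 189, 175 and 177 CPM (log2FC -0.18 ± 0.06, adjusted p = 0.0174). In NCI-N87 cells 0 of the 3 complex II genes were called, with log2FCs of -0.16 for SDHB and -0.09 for SDHA, both of which turned positive with library size as the only scaling. UQCRFS1 was at 420, 349 and 471 CPM untreated and at 295, 278 and 295 CPM after afatinib in MKN7 cells (log2FC -0.52 ± 0.11, adjusted p = 0.000687). It went from 128, 117 and 137 to 68.3, 68.4 and 94.5 CPM in NCI-N87 cells (log2FC -0.76 ± 0.17, adjusted p = 0.000486). In both lines the treated and untreated libraries of UQCRFS1 were separate. UQCRC1 and UQCRC2 fell in NCI-N87 cells by 0.36 ± 0.12 and 0.29 ± 0.11 on the log2 scale (adjusted p = 0.0113 and 0.0302), and in MKN7 cells their values of -0.17 and -0.20 did not pass the test. In all, 3 of 8 complex III genes fell in MKN7 and 4 of 8 in NCI-N87 cells, where 25% and 31% of all genes were lower.

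Of the 13 complex IV genes in MKN7 cells, 1 fell, and of the 12 tested in NCI-N87 cells, 1 rose. Of all genes, 25% fell in MKN7 and 31.5% rose in NCI-N87 cells. Differences between complexes were not tested. The gene that fell, COX5A, was at 176, 156 and 214 CPM untreated and 122, 110 and 138 CPM after afatinib (log2FC -0.57 ± 0.14, adjusted p = 0.00202, edgeR). It was separate between the groups in MKN7, whereas in NCI-N87 cells, with 183, 162 and 209 against 146, 135 and 196 CPM, the groups overlapped (log2FC -0.25, adjusted p = 0.318). The gene that rose was COX6B2, at 13.3, 10.5 and 8.64 CPM untreated and 21.2, 18.7 and 18.1 CPM after afatinib in NCI-N87 cells (log2FC 0.80 ± 0.15, adjusted p = 7.53e-05). The COX6B2 value in MKN7 cells was -0.44 (adjusted p = 0.139). Exons of other genes on the same strand overlap 30.9% of the COX6B2 exon length, and the part of that overlap in its values was not tested. COX4I1 was at -0.18 and -0.13 and COX5B at -0.04 and -0.09 in MKN7 and NCI-N87 cells, and COX6B1, COX7A2, COX7A2L, COX7B and NDUFA4 were not called in either line. With library size as the only scaling, COX5A and COX4I1 had positive log2FCs in NCI-N87 cells.

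MKN1 and Hs746T cells showed no called subunit gene after 24 h of afatinib. In MKN1 cells, where 25.6% of all genes were called, 0 of 67 genes passed edgeR's test, 0 passed with DESeq2 and 3 had an unadjusted p below 0.05. The smallest adjusted p was 0.0612, for NDUFB5, and the median log2FC was 0.07. ATP5F1B was at 1365, 1526 and 1393 CPM untreated and at 1354, 1621 and 1359 CPM after afatinib, and the groups overlapped fully. The count of 0 in MKN1 cells became 3 with the replicate block, 19 with the ribosomal protein level as a covariate (16 higher and 3 lower), 1 without replicate 1 and 7 without replicate 2 (4 higher and 3 lower). In Hs746T cells, 0% of all genes and 0 of 65 subunit genes were called by edgeR, with 0 by DESeq2 and 0 at an unadjusted p below 0.05. COX6B2 and COX7B2 were too low there to be tested. NDUFV1, SDHC, COX4I1, COX5B and COX6B1 were called in none of MKN1, MKN7 and NCI-N87 cells, where 25.6%, 51.6% and 62.5% of all genes were called.

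Whether the response differed between lines was tested with interaction contrasts in a fit of all lines. Between NCI-N87 and MKN7 cells, 1 gene differed, where 21.4% of all genes did. It was COX6B2, with a difference of 1.26 ± 0.32 on the log2 scale (adjusted p = 0.00161, edgeR). Between NCI-N87 and MKN1 cells 10 genes differed (28% of all genes), 9 of them with the lower log2FC in NCI-N87 (15.9%), and with the replicate block 30 did. ATP5MC3 (-1.02), NDUFA12 (-0.93) and ATP5F1B (-0.82) had the largest differences downwards, and COX6B2 (1.08) was the 1 gene upwards. MKN7 and MKN1 cells differed in 2 genes (7.61% of all genes), ATP5F1B (-0.60 ± 0.16, adjusted p = 0.0066) and ATP5F1A (-0.39), and in 19 with the block. Against Hs746T cells, 15 genes had a lower log2FC in NCI-N87 (19.2% of all genes, and 35.1% in either direction) and 5 in MKN7 cells (10.5% and 18.8%), and the counts were 29 and 20 with the block. The 5 genes of MKN7 against Hs746T cells became 1 (ATP5F1B) with DESeq2, with library size as the only scaling and without the filter on low counts, and the 15 of NCI-N87 became 8 with library size as the only scaling. Without replicate 3, the counts against Hs746T were 4 and 0, those of NCI-N87 and of MKN7 against MKN1 5 and 0, and that between NCI-N87 and MKN7 0. Without replicate 1 they were 7, 3, 6, 1 and 2 in the same order, and without replicate 2 the counts of MKN7 were 11 against Hs746T and 1 against MKN1. Between MKN1 and Hs746T cells 0 genes differed in edgeR's test (4.41% of all genes), 0 in DESeq2 and 0 at an unadjusted p below 0.05.

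The combination with trastuzumab gave a separate comparison, because Tra+Afa against Tra shares no library with Afa against untreated. Trastuzumab alone changed 0 subunit genes at 24 h in every line in edgeR's test, 0 in DESeq2 and 0 at an unadjusted p below 0.05, where 0% of all genes were called in each line. When afatinib was added to trastuzumab, 18 of 67 genes were lower and 0 higher in MKN7 cells (21.6% and 22.8% of all genes, 44.4% called). The 18 genes were all among the 24 called for afatinib alone, which is 100% of the 18 and 75% of the 24, and with the same sign. In NCI-N87 cells 40 of 66 genes were lower and COX6B2 was higher (30.3% and 31.5% of all genes, 61.8% called), and these 41 included all 25 genes called for afatinib alone with the same sign (61.0% of the 41). For all genes the corresponding shares were 79.9% and 92.8% in MKN7 and 88.0% and 89.1% in NCI-N87 cells. Called or not, 94.0% of the subunit genes had the same sign in both comparisons in MKN7 and 89.4% in NCI-N87 cells. For all genes these shares were 90.1% and 90.4%. In MKN1 cells only 24 of 67 subunit genes (35.8%) had the same sign, against 82.4% of all genes. In Hs746T cells it was 32 of 65 (49.2%), against 61.8%.

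**Figure D5:**
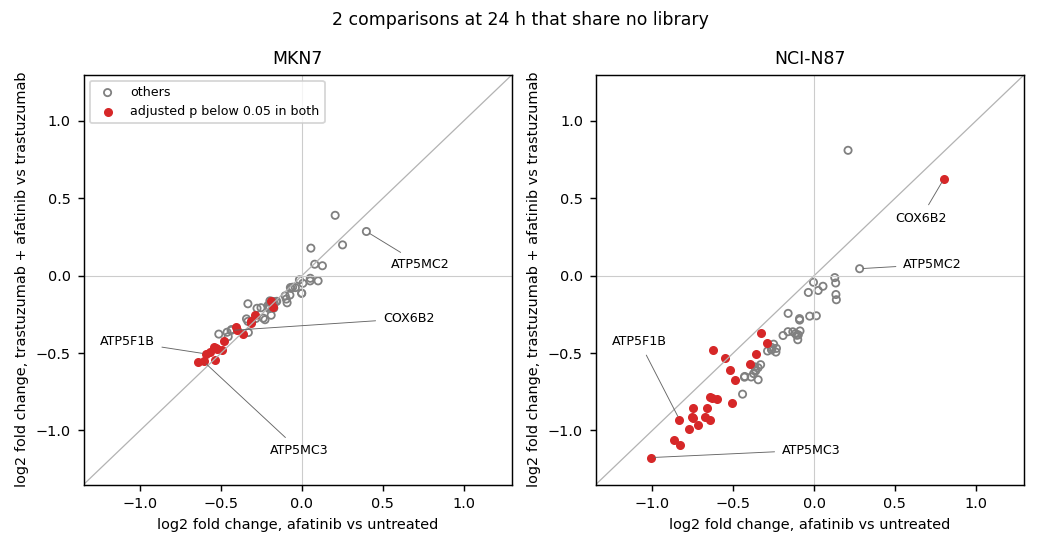
Log2 fold change of Tra+Afa against Tra (y axis) plotted against that of Afa against untreated cells (x axis) at 24 h in MKN7 and NCI-N87 cells, with 1 point per gene, red filled points for an adjusted p below 0.05 in both comparisons and a diagonal for equal values. Red points lie where both values are negative, apart from COX6B2 in NCI-N87 cells.

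The genes with the largest falls were alike in both comparisons. In NCI-N87 cells, ATP5MC3 was at 270, 251 and 369 CPM with Tra and at 107, 120 and 173 CPM with Tra+Afa (log2FC -1.18 ± 0.21, adjusted p = 4.84e-05, edgeR). NDUFS8 was at 104, 83.9 and 121 CPM with Tra and at 42.2, 46.4 and 57.7 CPM with Tra+Afa (log2FC -1.10 ± 0.16, adjusted p = 4.49e-06), and ATP5MD had a log2FC of -1.06 ± 0.25 (adjusted p = 0.000795). These were the 3 subunit genes beyond a log2FC of 1, where 28.2% of all genes were, and their groups did not overlap. ATP5F1B was at 914, 885 and 1150 CPM with Tra and at 465, 514 and 591 CPM with Tra+Afa (log2FC -0.93 ± 0.14, adjusted p = 8.81e-06). COX6B2 went from 15.2, 10.5 and 11.8 to 20.4, 18.7 and 19.6 CPM (log2FC 0.62 ± 0.15, adjusted p = 0.000988). By complex, 17 of 30, 1 of 3, 7 of 8, 3 of 12 and 12 of 13 genes of complexes I to V were lower there. Of all genes, 30.3% were lower. In MKN7 cells the lowest values were those of NDUFB9 (-0.56), ATP5MC3 (-0.55), ATP5F1D (-0.54) and ATP5F1B (-0.51 ± 0.09, adjusted p = 0.000145). ATP5MC2 was at 97.5, 77.4 and 98.4 CPM with Tra and at 107, 102 and 128 CPM with Tra+Afa, separate groups whose difference did not pass the test (log2FC 0.29, adjusted p = 0.0811).

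The ribosomal protein level of the libraries was 9.62 ± 0.31 log2 CPM with Tra and 9.30 ± 0.36 with Tra+Afa in NCI-N87 cells, a larger gap than between untreated (9.50 ± 0.14) and Afa (9.43 ± 0.28, n = 3 each). With that level as a covariate, 49 subunit genes were called in NCI-N87 cells, 45 of them lower, and in MKN7 cells 32, 30 of them lower. The blocked fit called 37 genes in MKN7 cells, 36 of them lower. Without replicate 1 there were 4 calls in MKN7 and 19 calls in NCI-N87 cells, and with library size as the only scaling 11 and 25. In MKN1 cells 0 genes were called by edgeR (27.9% of all genes), with 1 by DESeq2 and 6 at an unadjusted p below 0.05, while the covariate gave 14 higher and 3 lower. Without replicate 2 the count was 11, 5 higher and 6 lower. In Hs746T cells 0 of 65 were called by either tool (0% of all genes), with 0 at an unadjusted p below 0.05.

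After 4 h of afatinib, no subunit gene was called in any line by edgeR or DESeq2. Of all genes, 22.2% were called in MKN7, 18.2% in NCI-N87, 3.68% in MKN1 and 0% in Hs746T cells. ATP5F1B was at 618, 561 and 584 CPM in untreated and 589, 544 and 636 CPM in treated MKN7 cells, and at 905.5, 1012 and 1204 against 964, 908 and 1111 CPM in NCI-N87 cells, overlapping in both. At an unadjusted p below 0.05 there were 38 genes in Hs746T cells, 2 in NCI-N87 and 1 each in MKN1 and MKN7 cells. In Hs746T cells the median log2FC was 0.44, with a smallest adjusted p of 0.678, and the ribosomal protein level was 8.95 ± 0.16 log2 CPM untreated and 9.39 ± 0.32 after afatinib. The part of that level in the Hs746T values was not tested. Of the regulators described next, 8 of 12 tested had fallen in MKN7 and 7 of 13 in NCI-N87 cells at 4 h, and 1 had risen in each, GABPA (log2FC 0.30) in MKN7 and PPARGC1A (0.95) in NCI-N87 cells, both named after their values were seen.

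Lists of genes with related functions were counted in the same comparisons after 24 h of afatinib. Of 13 regulators of mitochondrial genes, 10 of the 12 tested fell in MKN7 (median log2FC -0.48) and 10 of 13 in NCI-N87 cells (-0.82), and none rose. In NCI-N87 cells MYC, a growth factor target that drives biosynthetic genes, fell by 1.99 ± 0.14 on the log2 scale (adjusted p = 5.02e-11, edgeR), PPRC1, a coactivator related to PGC-1, by 2.18 ± 0.09 (adjusted p = 4.57e-14) and TFAM, which packages and transcribes mitochondrial DNA, by 1.40 ± 0.11 (adjusted p = 7.63e-10). NRF1 and YY1, whose letters were searched above, fell by 0.70 and 0.56 in NCI-N87 and by 0.35 and 0.21 in MKN7 cells. Among assembly factors, 19 of 41 tested fell and 3 rose in MKN7 (median -0.32), and 27 fell and 4 rose in NCI-N87 cells (-0.57). The share that fell in MKN7 cells was close to that of the well expressed genes. NDUFAF4, an assembly factor of complex I, fell by 2.32 ± 0.19 in NCI-N87 cells (adjusted p = 6.86e-10), whereas COA5 and SDHAF4, which assist complexes IV and II, had log2FCs of 0.73 and 0.75.

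Proteins of the mitochondrial ribosome, which translates the mitochondrially encoded subunits, fell in 45 of 64 genes tested in MKN7 (median log2FC -0.44) and 47 of 64 in NCI-N87 cells (-0.64), and 1 rose in MKN7. MRPL3 had log2FCs of -0.79 and -1.51. Beside the counts of this paragraph stand the 25% and 31% of all genes that were lower in MKN7 and NCI-N87 cells. Of 13 genes of the tricarboxylic acid cycle, 10 fell in each line (medians -0.38 and -0.61) and 1 rose in NCI-N87 cells, with IDH3A at -0.70 and -1.29. Of 16 glycolysis genes tested, 14 fell and 1 rose in MKN7 (median -0.59) and all 16 fell in NCI-N87 cells (-1.08), among them HK2, which phosphorylates glucose, with -3.0 and LDHA, which makes lactate, with -2.03 in NCI-N87 cells. The medians of all 5 lists lay below those of the subunit genes, -0.20 and -0.33. In MKN1 cells, where 25.6% of all genes and 0 subunit genes were called, 8 of 13 regulators and 6 of 16 glycolysis genes fell. In each of these 2 lists 1 gene rose.

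The calls after 24 h of afatinib were also counted by the letters in the promoters. In MKN7 cells 8 of 12 genes with YY1 letters fell (median log2FC -0.35), against 10 of 43 without them (-0.19). In NCI-N87 cells the counts were 9 of 12 (-0.53) and 10 of 43 (-0.26). Of the promoters shown above, NDUFS1, NDUFS6, UQCRFS1 and ATP5PF belong to genes that fell in both lines and SDHB to one that fell in MKN7 cells, while SDHA, with 2 copies of the NRF1 motif in the part that is shown, was called lower in MKN7 cells (-0.18) and not in NCI-N87 cells (-0.09). The YY1 letters of UQCRFS1 lie beyond the part that is shown. For the NRF1 motif the counts were 3 of 11 against 15 of 44 in MKN7 and 5 of 11 against 14 of 44 in NCI-N87 cells. For the SP1 letters they were 15 of 33 against 3 of 22 in MKN7 and 11 of 33 against 8 of 22 in NCI-N87 cells, and for the ETS letters 6 of 15 against 12 of 40 and 5 of 15 against 14 of 40. These counts describe the letters, were chosen with the values known, and were not tested. The calls of all other genes with the same letters were not counted. The counts therefore cannot show anything particular to the subunit genes.

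EGF changed few subunit genes in MKN1 cells. After 24 h, 2 of 67 were higher and 2 lower, where 35.8% of all genes were called, 17.3% as higher and 18.5% as lower. SDHA was at 511, 509 and 507 CPM untreated and at 411, 442 and 433 CPM after EGF (log2FC -0.23 ± 0.07, adjusted p = 0.0123, edgeR), and UQCRC2 at 183, 192 and 176 against 145, 161 and 156 CPM (log2FC -0.23 ± 0.08, adjusted p = 0.0281). NDUFV3, an accessory subunit of the flavoprotein arm of complex I, was at 39.6, 37.0 and 40.5 CPM untreated and at 45.7, 48.7 and 46.6 CPM after EGF (log2FC 0.29 ± 0.06, adjusted p = 0.000388). NDUFA13, also known as GRIM-19, was at 1.62, 1.67 and 1.80 against 2.10, 2.46 and 2.23 CPM (log2FC 0.43 ± 0.16, adjusted p = 0.0284). Its level lies near the limit of 1 CPM and 21.0% of its exon length is overlapped on the same strand. The part of that overlap in the call was not tested. The groups of all 4 genes were separate, and the count of 4 was 1 without replicate 1 and also 1 without replicate 3. The counts were 10 with the replicate block (7 higher), 9 with library size as the only scaling (all lower) and 37 with the ribosomal protein level as a covariate (34 lower). Of the lists, 24 of 65 mitochondrial ribosome genes, 10 of 13 regulators, 9 of 16 glycolysis genes and 8 of 41 assembly factors rose with EGF in the same comparison, and 1 regulator and 1 assembly factor fell.

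Cetuximab, the shorter EGF treatment and time in culture touched few or no subunit genes. In MKN1 cells 0 were called by edgeR or DESeq2 after 4 h of EGF (6.82% of all genes), 4 h of cetuximab (1.43%) and 24 h of cetuximab (10.8%), or for EGF+Cet against EGF at 24 h (0.646%), with 1, 0, 1 and 1 genes at an unadjusted p below 0.05. The 24 h cetuximab count was 4 without replicate 2, and 6 with the ribosomal protein level as a covariate, all higher. In Hs746T cells 0 were called for EGF and for cetuximab at 24 h by either tool, with 0 at an unadjusted p below 0.05 and 0% of all genes called. Between 4 h and 24 h, untreated MKN1 cells rose in NDUFS1 (log2FC 0.18 ± 0.06, adjusted p = 0.0231, edgeR), UQCRC2 (0.28 ± 0.08, adjusted p = 0.00973) and NDUFB5, a membrane-arm subunit of complex I (0.41 ± 0.16, adjusted p = 0.0431), and fell in NDUFV3 (-0.20 ± 0.06, adjusted p = 0.0129), where 34.1% of all genes were called. Without replicate 1 that count of 4 was 0, without replicate 2 it was 7 and without replicate 3 it was 1. The blocked fit called 9 genes and the fit with the covariate 31. In untreated MKN7 (16.4% of all genes), NCI-N87 (0.267%) and Hs746T cells (1.48%) edgeR called 0 subunit genes between the times, with 3, 0 and 0 at an unadjusted p below 0.05, while DESeq2 called 1 in MKN7 cells.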

How the data were processed

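RNA sequencing libraries of 4 cell lines, 132 in all, were analysed. Per library, the authors deposited unnormalized counts of reads on Ensembl genes. The submitters' processing notes name Trim Galore, STAR and the build hg38; the counting step and its annotation are not given in the sources used here. Identifiers were matched to GENCODE 29, which lacks 8404 of them (0.0422% of counts). Of 132 pairs of replicates, 0 were identical, and the mean squared difference was at least 6.35 times the Poisson expectation.

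Levels are CPM with TMM factors over all libraries. Counts were tested in R 4.3.3 with edgeR 4.0.16 (filterByExpr at min.count 10 and min.total.count 15, glmQLFit, glmQLFTest), with 1 mean per treatment and time, all libraries of a line in 1 fit, and all lines in 1 fit for contrasts between lines. A gene was called at a Benjamini-Hochberg adjusted p below 0.05 over all genes tested. The standard error is the log2FC divided by the square root of F. The edgeR fit was also run on counts simulated for the NCI-N87 libraries, with few genes changed. Each gene was drawn independently, so that run cannot speak to the shared library difference described above. Values per kilobase use the union of exons in GENCODE 29, which is long for genes with rare long transcripts.

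Alternatives were DESeq2 1.42.0, library size in place of TMM, all genes without a filter, the replicate number as a block, leaving out each replicate, and the study's limit of an absolute log2FC above 1. A covariate, the mean log2 CPM of 67 of 77 cytosolic ribosomal protein genes with a mean of at least 10 CPM, was chosen after seeing the data. Replicate numbers come from the sample labels. Deviations from group means were correlated between same-numbered libraries in all 3 pairs (r above 0.1) in 25 of 27 contrasts within lines, which were taken as paired (mean r 0.525), and not in 2 (lowest r -0.00930). The log2FCs, SEs and adjusted p values of single genes come from the fit without the block, which leaves this pairing out. Genes named are core subunits, alternative forms, the called genes with the largest changes (at most 5 in each direction) and those next to the level limit. The members and lists were chosen with earlier results of these data known. SDHAF2, COX15 and ALDOC of the lists were listed at 0. The values of 1 subunit gene and 1 marker are not reported here, though both remain in the counts. Tables were made with Python 3.11.15 and pandas 2.3.3 and figures with matplotlib 3.10.9.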

Additional observations from a re-analysis of the deposited data

Results flagged for a closer look

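The effect of 24 h of afatinib differed between cell lines by an interaction test in edgeR (Benjamini-Hochberg adjusted p below 0.05) in the following subunit genes, given as differences of log2FC. For NCI-N87 minus MKN7 cells it was COX6B2 (1.26). For NCI-N87 minus MKN1 cells, the named genes were ATP5MC3 (-1.02), NDUFA12 (-0.93), ATP5F1B (-0.82), UQCRFS1 (-0.69), NDUFS1 (-0.59) and COX6B2 (1.08). For MKN7 minus MKN1 cells they were ATP5F1B (-0.60) and ATP5F1A (-0.39). For NCI-N87 minus Hs746T cells the 5 lowest were ATP5MC3 (-1.06), ATP5MD (-0.92), NDUFS8 (-0.90), NDUFS6 (-0.88) and NDUFB9 (-0.84). For MKN7 minus Hs746T cells they were ATP5MC3 (-0.69), ATP5F1B (-0.62), UQCRFS1 (-0.56), NDUFS7 (-0.51) and ATP5F1A (-0.31). Of these 5, ATP5F1B alone was called with DESeq2, with library size as the only scaling and without the filter on low counts. Every group had 3 libraries, so no library was tested for standing apart within its group. In the differences that involve Hs746T cells, the median log2FC of the subunit genes in Hs746T cells was 0.10, with 0 genes called.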

How the results depend on the processing

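The replicate block changed the calls or moved counts by more than 1.5 times in several comparisons, and the values without a parallel in the text above are given here. Shares of all genes called under these settings are not given. For MKN1 Afa at 24 h the 0 calls became 4 with library size alone, 3 with the block and 19 with the ribosomal protein covariate. For Afa at 4 h the 0 calls became 1, 1 and 2 in MKN7 and 1, 1 and 3 in NCI-N87 cells under the same 3 settings. For Afa at 24 h, 24 calls in MKN7 became 37 with the block and 0 beyond a log2FC of 1, and 25 in NCI-N87 cells became 45 with the block, 51 with the covariate and 1 beyond a log2FC of 1. For Tra+Afa against Tra, MKN1 went from 0 to 1 with DESeq2, 3 with library size alone, 17 with the block and 17 with the covariate, MKN7 from 18 to 11 with library size alone, 37 with the block and 32 with the covariate, and NCI-N87 from 41 to 25 with library size alone. MKN1 EGF at 4 h gave 1 with library size alone and 1 with the block, and at 24 h 9, 1 without the filter, 10 with the block and 37 with the covariate. MKN1 Cet at 24 h gave 1 with the block and 6 with the covariate. Over time, MKN1 gave 11 with library size alone, 2 without the filter, 9 with the block and 31 with the covariate, MKN7 gave 1 with DESeq2, 2 with library size alone, 4 with the block and 5 with the covariate, and Hs746T 4 with the covariate. Interaction counts became 3 with library size alone and 4 with the block for NCI-N87 minus MKN7, 30 with the block for NCI-N87 minus MKN1, 19 with the block for MKN7 minus MKN1, 8 with library size alone and 29 with the block for NCI-N87 minus Hs746T, and for MKN7 minus Hs746T 1 with DESeq2, 1 with library size alone, 1 without the filter and 20 with the block.

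Leaving out each replicate gave 0 to 7 calls for MKN1 Afa at 24 h, 7 to 29 for MKN7, 9 to 34 for NCI-N87, 0 to 11, 4 to 20 and 19 to 46 for Tra+Afa against Tra in the same lines, 1 to 6 for MKN1 EGF and 0 to 4 for MKN1 Cet at 24 h, and 0 to 7 for MKN1 over time. Between lines the ranges were 39 to 49 (NCI-N87 and MKN7), 34 to 41 (NCI-N87 and MKN1), 41 to 50 (MKN7 and MKN1), and 42 to 51, 45 to 49 and 45 to 48 for NCI-N87, MKN7 and MKN1 against Hs746T. For the interactions they were 0 to 2, 5 to 8, 0 to 1, 4 to 15 and 0 to 11 in the order above. The directions of SDHA (0.17), SDHB (0.093), COX5A (0.0049) and COX4I1 (0.12) after Afa in NCI-N87 cells reversed with library size alone, that of SDHA also without replicate 1 (0.032, with -0.16 to 0.032 over the replicates left out), and that of ATP5MC2 for Tra+Afa against Tra without replicate 2 (-0.0086, with -0.0086 to 0.15), and none of these was called in the analysis as reported. The cause of these changes was not tested. The pairing did not hold for MKN1 Tra+Afa against Tra and MKN1 Cet at 24 h, and the blocked values there rest on numbers alone.

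COX6B2, COX7A1 and COX7B2 reached the level of 3 counts in some lines, which limits what their values there can show. With 3 libraries a group, the counts of calls carry the shared difference between libraries described above.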
